A study of Mus musculus with 22 samples.

Results

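The regions described here are the 5' ends that lie in the 3' untranslated region (3' UTR) of protein-coding genes, behind the stop codon. They are the features that the authors' annotation puts in its coding 3' UTR class, 17309 of 112366 endogenous features (spike-in and ribosomal RNA features left out). A feature is a short region where mapped 5' ends gather, given by its position and strand and, in most cases, a gene symbol. Each 3' UTR feature was set beside the start reads of the same gene, here the reads in its 5' UTR and upstream features. The 5' UTR class holds 11045 features, the upstream class 4060 and the coding sequence (CDS) class 44472.

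Primary motor cortex (M1) was taken from male C57BL/6 mice of 16 to 20 weeks, from the right and the left side of each brain. The 6 wild-type (WT) mice were compared with 5 BERKO mice, whose genotype label is ERb-/- and which lack estrogen receptor beta. The labels name no treatment, and the groups are WT right, WT left, BERKO right and BERKO left. From each needle biopsy 10 ng of total RNA entered STRT sequencing, in which a template-switching oligonucleotide marks the 5' end of each cDNA. A further BERKO mouse named in the labels' protocol was not analysed here, and nothing in the labels ties the mice to litters or days.

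In STRT most reads mark the start of a messenger RNA, at its promoter. 5' ends inside 3' UTRs are a known population in such data too. Known sources are RNA pieces left by cleavage or decay, 3' UTR pieces that exist as separate RNAs, promoters inside the last exon, and reverse transcription that ends or switches template before the cap. Long 3' UTRs are frequent in neurons, where they carry signals for localization, stability and local translation. A read count does not tell these sources apart, and which of them a feature had was not tested.

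The 3' UTR features were many, and most were weak. They lay on both strands in near equal number, 8600 on the plus and 8709 on the minus strand, and 17287 of them carried a single gene symbol, which gave 7061 genes. The other 22 carried several symbols. Over all 11 mice they held 1127834 reads. No read fell on 4006 features in any mouse, and 1744 features with a mean of 10 or more reads per mouse held 76.6% of the reads. The 10 highest features held 7.11% and the 1000 highest 66.5%.

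A gene often had several such ends. One feature was found in 44.4% of the genes and 5 or more in 924 genes. Aak1, a kinase of clathrin-coated vesicles, had the most, with 20. Strbp, which encodes an RNA-binding protein, followed with 18. Camk4, a calcium-dependent kinase of the nucleus, had 16, as had Nav1, a microtubule-binding protein of neurons. Neighbouring features of a gene were a median of 366 bases apart, with quartiles of 204.2 and 652 bases.

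Genes with 3' UTR ends had longer 3' UTRs. Among genes with a start feature, the median 3' UTR length in the GENCODE M21 annotation was 1578 bases for 5671 genes with a 3' UTR feature and 538.5 bases for 6012 genes without one. The number of features per gene correlated with this length (Spearman's rho 0.469 over 7051 genes, across genes in the same pooled libraries, as a description). With the genes split by length into 4 bins of like size, from short to long, 3' UTR reads were 4.71%, 9.62%, 12.5% and 16.9% of 3' UTR plus start reads in WT and 6.31%, 13%, 16.8% and 20.5% in BERKO. The mean share was higher in BERKO in every bin.

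Some genes were seen mainly or only through their 3' UTR. Of 7061 genes, 5677 had both 3' UTR and start features, and 1384 had no start feature at all and held 13.3% of the 3' UTR reads. Among those with many reads were Cbx6, a Polycomb protein (4102 reads), Adcy1, a calcium-stimulated adenylyl cyclase (3534), and Sort1, a sorting receptor (1808). Among 1557 genes with both kinds and 10 or more 3' UTR reads per mouse, 607 had more 3' UTR than start reads. Nrgn, the calmodulin-binding postsynaptic protein neurogranin, had 71.1% of its 3' UTR plus start reads in the 3' UTR. Camk2a, the postsynaptic calcium/calmodulin kinase, had 53.3% and Prkcb, protein kinase C beta, had 86.4%. Vamp2, the vesicle fusion protein, had 89.6% and Elavl3, a neuronal RNA-binding protein, 99.0%. A feature count of these genes therefore describes 3' UTR ends more than promoters.

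Endogenous reads per mouse were 1418084 to 2899377 in WT, while BERKO had 1010647 to 1695183. Spike-in reads were 3620 to 5280 and 1770 to 2420. Mitochondrial reads made up 1.38% to 1.97% of the reads in WT and 0.694% to 0.919% in BERKO. Reading the first letter of the well code in the column names as the plate row, WT and BERKO were in different rows, and so were right and left biopsies within a genotype. Plate row cannot be told apart from genotype, and the part of depth and mitochondrial share in the results was not tested. On the first principal component (19.04% of the variance of 3507 genes), 3 WT libraries stood apart: right and left of WT replicate 1 at -28.89 and -31.68, and left of WT replicate 2 at -29, with the other 19 between -7.782 and 11.35. Esr2, the deleted gene, had 3 reads in WT and 10 in BERKO and no 3' UTR feature, so it could not check the labels.

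Of the tissue's defining markers, those of cortical excitatory neurons (6 of 6 measured) were at a summed level of 1110 to 1780 CPM in WT and 1590 to 2330 in BERKO. CPM are reads per 1000000 endogenous reads after TMM scaling, except that CPM by side are per biopsy without TMM scaling. In start reads alone these ranges were 494 to 903 and 401 to 1070. Microglial markers (6 of 6) were at 491 to 833 CPM in WT and 811 to 998 in BERKO, endothelial markers (6 of 6) at 181 to 359 and 332 to 453, and striatal markers (5 of 6, Drd1a not found) at 34.9 to 220 and 164 to 301. Interneuron (848 to 1120 and 714 to 983), astrocyte (3620 to 5860 and 4190 to 5820), oligodendrocyte (2080 to 10700 and 4850 to 12600) and choroid plexus markers (19.8 to 454 and 25.1 to 226) overlapped widely. No defining marker was at 0 in all mice. In bulk tissue, fewer cells of a type and less RNA per cell cannot be told apart, and the part of these markers in the results below was not tested.

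The first comparison asked whether mice without estrogen receptor beta had another share of their 5' ends in 3' UTRs. They had a larger one. 3' UTR features took 4.978%, 5.331%, 4.804%, 6.274%, 4.979% and 4.094% of endogenous reads in WT replicates 1 to 6. In BERKO replicates 2 to 6 they took 5.995%, 6.876%, 6.723%, 7.078% and 6.298%. The widest 95% Wilson interval, 7.028% to 7.128% in BERKO replicate 5, covers counting error only. All BERKO mice were above 5 of the 6 WT mice, and WT replicate 4 lay among them, below the highest 4.

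WT had a mean of 5.08% ± 0.715 (SD, n = 6), BERKO one of 6.59% ± 0.441 (SD, n = 5). The difference of 1.52 percentage points had a two-sided exact permutation p of 0.00649 over 462 splits of the mice, and 0.0173 after Benjamini-Hochberg adjustment over 8 shares. The smallest p this design allows is 0.00216. Within genes with both kinds of feature, 3' UTR reads were 10.3% ± 1.52 of 3' UTR plus start reads in WT and 13.5% ± 0.893 in BERKO (adjusted p = 0.0173 by the exact permutation test). The median gene had a log2 ratio of 3' UTR to start reads of -2.40 ± 0.256 in WT and -1.99 ± 0.0739 in BERKO (SD, n = 6 and 5), with an exact permutation p of 0.00866. A shift in the sum of CDS and 3' UTR reads was already known in these mice when the question was chosen, so these p-values are no independent support for it.

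CDS features moved with them, from 8.89% ± 1.10 to 11.1% ± 0.859 (adjusted p = 0.0173 by the exact permutation test). 5' UTR features fell from 63.4% ± 1.48 to 61.3% ± 1.16 (0.0485). Upstream features were at 13.2% ± 0.417 and 12.7% ± 0.315 (0.0751), and features outside annotation fell from 4.54% ± 0.579 to 3.56% ± 0.112 (0.0173). Mitochondrial reads were at 1.7% ± 0.247 in WT and 0.839% ± 0.0963 in BERKO, and their part in that last fall was not tested. The 3' UTR difference was 1.40 points without the 3 libraries named above (exact permutation p = 0.0159) and 1.36 points without the 10 highest 3' UTR features (0.00649). It was 1.98 points in right biopsies alone (0.00216) and 0.91 in left biopsies alone (0.175), where the test was not passed.

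**Figure D1:**
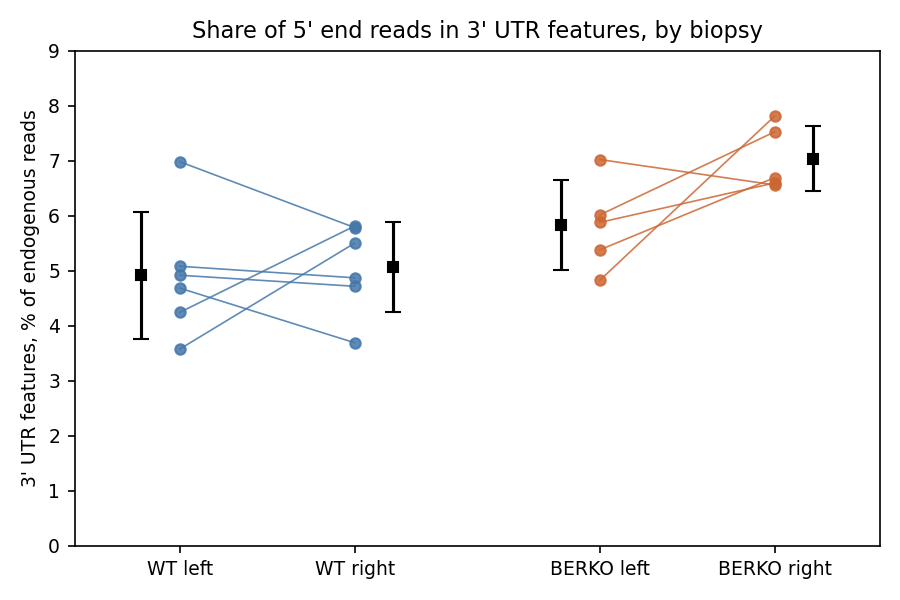
Percent of endogenous reads in 3' UTR features (vertical axis) in each biopsy, by genotype and side; a line joins the left and right biopsy of a mouse, and black squares with bars are group means ± SD. BERKO right biopsies (6.56% to 7.81%) lie above all WT right biopsies (3.69% to 5.81%), while the left biopsies of the genotypes overlap.

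The second comparison tested each feature for a difference between BERKO and WT. It named 2 3' UTR ends, Cx3cl1 and Cdk5r1, both higher in BERKO. Of 17309 3' UTR features, 1699 passed the filter on low counts. Of these, 2 (0.118%) passed the threshold (adjusted p under 0.05, edgeR's quasi-likelihood test, adjusted over all 13128 features tested). This share was close to the 0.107% over all features (0.0305% higher and 0.0762% lower). Both genes serve neurons: Cx3cl1 encodes fractalkine, the neuronal ligand of the microglial receptor Cx3cr1, and Cdk5r1 encodes p35, the neuronal activator of the kinase Cdk5.

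The 3' UTR end of Cx3cl1 lies at 97305336 on the plus strand of chromosome 8 (mm9). It was at 95.7, 210, 196, 269, 145 and 169 CPM in WT replicates 1 to 6 and at 326, 409, 341, 394 and 335 CPM in BERKO replicates 2 to 6. Every BERKO mouse was above every WT mouse. The mean was 181 ± 59.1 CPM in WT and 361 ± 37.4 in BERKO (SD, n = 6 and 5), a log2 change of 1.00 ± 0.19 (SE, edgeR adjusted p = 0.029).

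The start reads of Cx3cl1 did not separate the genotypes. They were at 230, 457, 410, 399, 346 and 491 CPM in WT and 336, 490, 392, 465 and 296 CPM in BERKO, with means of 389 ± 92.3 and 396 ± 82.5. In WT the start exceeded the 3' UTR end in each mouse, and in BERKO the pair was close to level. The 3' UTR thus held 31.4% ± 4.89 of the pair in WT, 25.6% to 40.2%, and 48.0% ± 3.20 in BERKO, 45.5% to 53.1%.

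The called end of Cdk5r1 lies at 80293456 on the plus strand of chromosome 11 (mm9). Its level was 14, 28.2, 29, 49.3, 27.4 and 28 CPM in WT and 54.4, 95, 62.5, 90.6 and 71.1 CPM in BERKO. The genotypes did not overlap. The mean rose from 29.3 ± 11.3 to 74.7 ± 17.6 CPM, by 1.35 ± 0.27 log2 units (SE, edgeR adjusted p = 0.0474).

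Cdk5r1 has no start feature, and its other 2 3' UTR features were at or below 4.07 CPM in every mouse, so its reads are 100% 3' UTR reads. Among its relatives, Cdk5r2, which encodes the related activator p39, also has no start feature. Its higher 3' UTR end stood at 14.9 ± 10.4 CPM in WT mice and 21.1 ± 10.2 in BERKO mice (log2 0.54 ± 0.58, edgeR adjusted p = 0.764). Cdk5 itself had 4 weak 3' UTR ends, at 4.41 ± 3.42 and 6.84 ± 4.49 CPM in sum, beside start reads of 138 ± 21.4 and 132 ± 29.4 CPM.

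Neither call held in most reduced sets of mice. When each mouse was left out in turn, Cx3cl1 passed in 2 of 11 fits, without WT replicates 1 or 4 (adjusted p = 0.0117 and 0.00555), and was at 0.0514 to 0.138 in the others. Cdk5r1 passed in 3 of 11, without WT replicates 1 or 4 or BERKO replicate 2 (0.0402, 0.00775 and 0.0488), and was at 0.0876 to 0.186 in the others. Their log2 changes stayed between 0.87 and 1.15 and between 1.20 and 1.57. Leaving out the 3 WT libraries named above, Cx3cl1 was at 0.79 (adjusted p = 0.0496) and Cdk5r1 at 1.18 (0.0598). In left biopsies alone neither passed (0.87 with adjusted p = 0.679, and 0.85 with 0.838).

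Next by p were 8 features that missed the threshold in edgeR. All 8 passed in DESeq2 (adjusted p = 0.00216 to 0.0369). DESeq2 called 27 3' UTR features higher and 3 lower of 869 it tested, against 0.874% higher and 0.784% lower of all features (1.66% in all). In edgeR with spike-in scaling 6 of the 8 passed (0.305% of all features, 0.274% higher and 0.0305% lower), and Mark1 and Pex13 did not (0.0551 and 0.137). The 8 were picked by a small p on the same counts, so passing in another fit is no separate evidence. The nearest to the edgeR threshold was Slc17a7, which loads glutamate into vesicles of excitatory neurons and whose 3' UTR end on chromosome 7 (52430792, plus strand, mm9) held 60.6% of the gene's reads. It was at 36.3, 68.6, 55.4, 63.6, 63.5 and 41.9 CPM in WT and at 105, 108, 106, 135 and 88.8 CPM in BERKO. The genotypes did not overlap, with a log2 difference of 0.98 ± 0.21 (edgeR adjusted p = 0.0595). Its start reads were few in both, at 0.0922 ± 0.226 and 1.27 ± 1.83 CPM.

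Otub1, a deubiquitinase, differed by 1.11 ± 0.26 (edgeR adjusted p = 0.1) and Rasl10b, a small GTPase, by 2.05 ± 0.48 (0.117). For both, every BERKO mouse was above every WT mouse. The 10 features with the smallest p, Cx3cl1 and Cdk5r1 included, were picked by that p. A lack of overlap between the genotypes is thus no separate evidence for any of them. Syt1, the calcium sensor of synaptic vesicles, differed by 0.74 ± 0.18 (0.125) and 4 of 5 BERKO mice were above all WT mice. Tspan7, a membrane protein of the tetraspanin family, differed by 1.01 ± 0.24, Mark1, a kinase that acts on microtubule-associated proteins, by 1.74 ± 0.42, and Camk2a by 0.58 ± 0.14 (adjusted p = 0.13 to 0.131). Pex13, a peroxisome import protein, was the exception in direction. Its 3' UTR end was at 14.8 to 27.5 CPM in WT and 0.974 to 8.59 in BERKO (log2 -1.85 ± 0.46, 0.131), without overlap. Stretches of the Pex13 3' UTR are shared with 6 other genes, and stretches of the Syt11 3' UTR with 170. The longest are 82 bases at 95.122% with Rbm25 for Pex13, and 188 bases at 95.213% with Slx1b for Syt11. Whether the counted ends lie in these stretches was not tested, so counts of these 2 genes are uncertain. For Cx3cl1, Cdk5r1 and the other genes among the top 20 and the 10 smallest p, no stretch of 50 bases or more at 95% identity was found in another gene's transcripts.

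**Figure D2:**
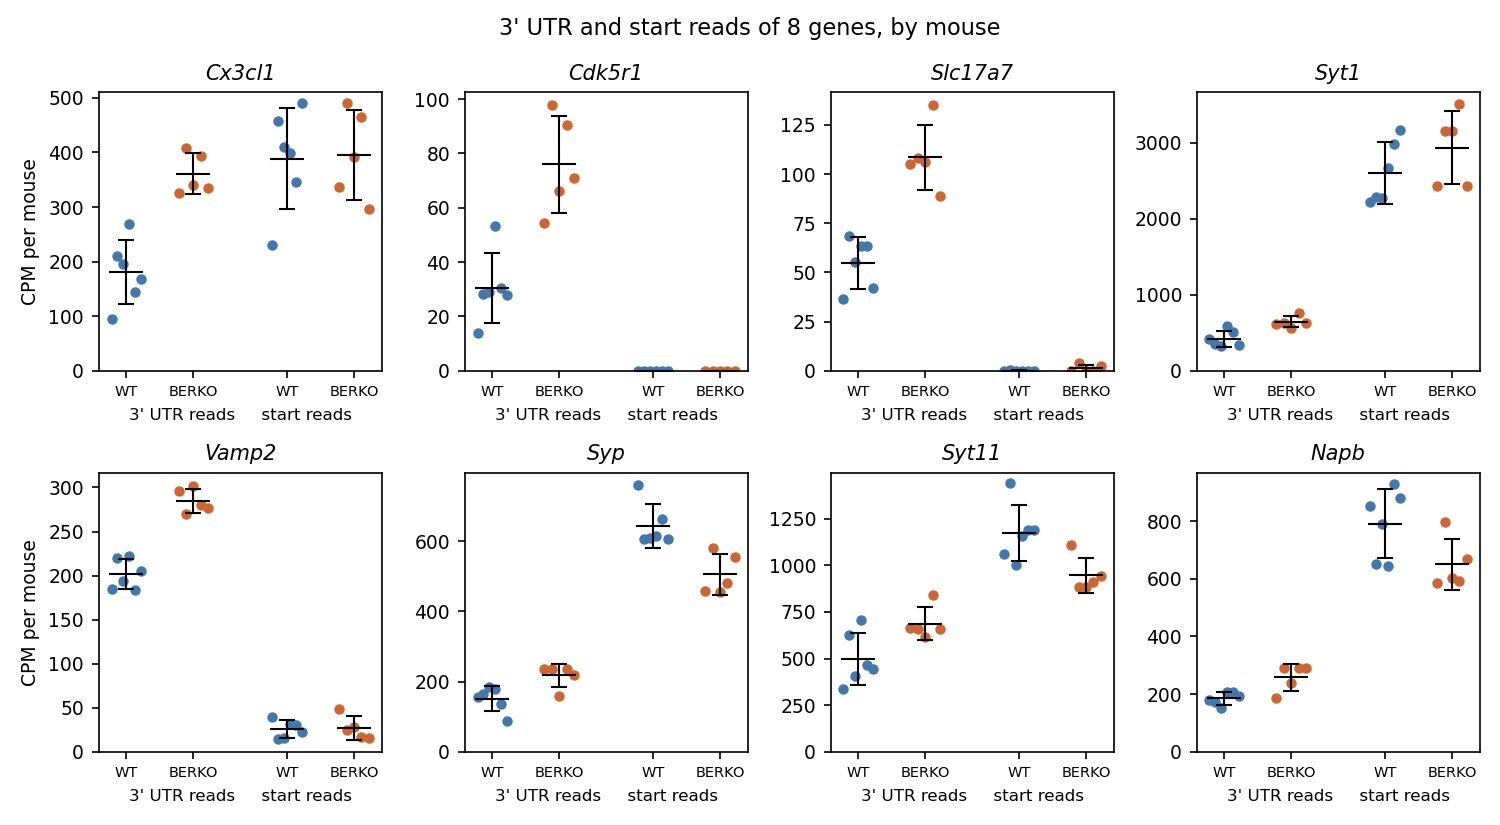
Reads in 3' UTR features and start reads (CPM, vertical axis, a scale for each gene) of 8 genes in each mouse; points are mice, horizontal marks the mean and bars the SD, with WT in blue and BERKO in orange. For Cx3cl1 the 3' UTR reads separate the genotypes and the start reads do not; Cdk5r1 and Slc17a7 have next to no start reads.

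Across all tested 3' UTR features the difference was small and broad. The median log2 difference was 0.40 and 80.2% were above 0. With all 13303 3' UTR features of at least 1 read fitted, the median turned to -0.07. The median over all 13128 features that passed the filter was 0.01 with 50.7% above 0. CDS features had a median of 0.39 (76% above 0), 5' UTR features -0.15 (33.8%) and upstream features -0.17 (32.4%). Passing the low-count filter could itself favour features that are high in a group, and its part in the median was not tested. Of 1915 3' UTR features with a mean of 5 to 20 reads, 690 passed the filter, with a median of 0.35 and 73.9% above 0. All 861 3' UTR features with a mean of 20 to 100 reads and all 148 with 100 or more passed it. Their medians were 0.40 and 0.46, with 83% and 93.2% above 0. At an unadjusted p under 0.05, 254 3' UTR features were higher in BERKO (14.9%, against 5.89% of all features) and 15 were lower (0.883%, against 5.68%). The genotypes did not overlap, with BERKO higher, in 51 (3%, against 0.983% of all features), and with BERKO lower in 3 (0.177%, against 0.861%). These counts restate the larger 3' UTR share of reads feature by feature and are no separate evidence.

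**Figure D3:**
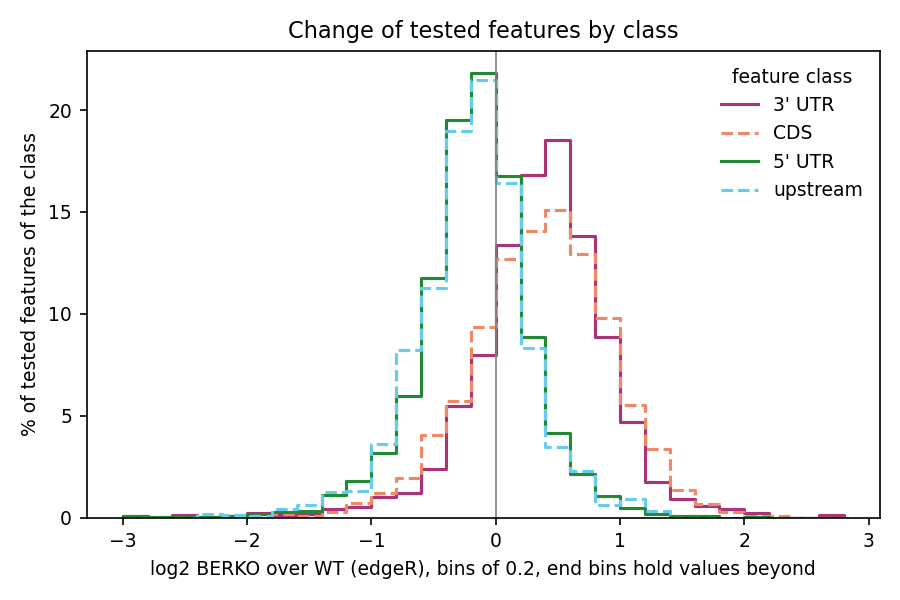
Distribution of the log2 change from WT to BERKO (horizontal axis) over the tested features of 4 classes, as percent of each class (vertical axis). The 3' UTR and CDS curves peak above 0, with medians of 0.40 and 0.39, and the 5' UTR and upstream curves below 0, with medians of -0.15 and -0.17.

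The 20 highest 3' UTR ends belonged mostly to genes of synapses and axons. Those named or plotted here had a higher mean in BERKO, by log2 differences from 0.16 for Rab6b, a Golgi GTPase, to 1.06 for Ntm, and Cx3cl1 was the one that passed in edgeR. DESeq2 called 5 of the 20: Cx3cl1, Camk2a, Syt1, Vamp2 and the third end of Nrgn. With spike-in scaling edgeR called 3, which were Cx3cl1, Camk2a and Syt1. Camk2a was highest, at 607 ± 137 CPM in WT and 905 ± 113 in BERKO. Its WT mice lay at 455, 572, 646, 836, 487 and 645 CPM and its BERKO mice at 726, 993, 965, 861 and 981. Only WT replicate 4 reached into the BERKO range.

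The 3 ends of Nrgn lie on the minus strand of chromosome 9 at 37352545, 37352356 and 37352878 (mm9). They were at 430 ± 229, 395 ± 160 and 163 ± 96.0 CPM in WT and at 636 ± 214, 634 ± 102 and 333 ± 56.9 CPM in BERKO. The log2 differences were 0.56 ± 0.36, 0.68 ± 0.22 and 1.03 ± 0.31 (edgeR adjusted p = 0.576, 0.259 and 0.234). These ends share a gene and mice, so they are not replicates. The genotypes overlapped at each of them, and whether the ends differed from each other was not tested.

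Vamp2 varied little between mice of a genotype. Its end at 68905388 on the plus strand of chromosome 11 (mm9) was at 182, 213, 191, 218, 182 and 202 CPM in WT and 294, 266, 292, 274 and 277 CPM in BERKO. The genotypes did not overlap, and the log2 difference was 0.50 ± 0.13 (edgeR adjusted p = 0.14). Ntm, an adhesion molecule of neurons, spread widely, from 28.4 to 213 CPM in WT and from 185 to 406 in BERKO (1.06 ± 0.40, 0.347).

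The ends of Syt1 at 107935730 (chromosome 10, minus strand, mm9), Syt11, a relative of Syt1 that does not sense calcium, Calm3, which encodes calmodulin, and Prkcb were also among the 20. Syt1 was at 351 ± 118 and 587 ± 64.7 CPM, and the higher end of Syt11 at 259 ± 78.7 and 371 ± 61.4. Prkcb was at 232 ± 83.1 and 374 ± 114, Calm3 at 376 ± 129 and 493 ± 75.8. Mapt, the microtubule-associated protein tau, was at 197 ± 44.9 and 268 ± 42.3, and Napb, a factor that disassembles fusion complexes, at 185 ± 22.1 and 257 ± 44.9. None of these passed in edgeR (adjusted p = 0.125 to 0.431), and of them Syt1 passed in DESeq2 (0.0188).

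An astrocyte gene was also among the 20. Slc1a2, the glutamate transporter of astrocytes, with 11 3' UTR features in all, had its highest end at 311 ± 58.0 CPM in WT and 381 ± 46.8 in BERKO (0.29 ± 0.14, adjusted p = 0.434). Whether glial and neuronal ends differed in their response was not tested.

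**Figure D4:**
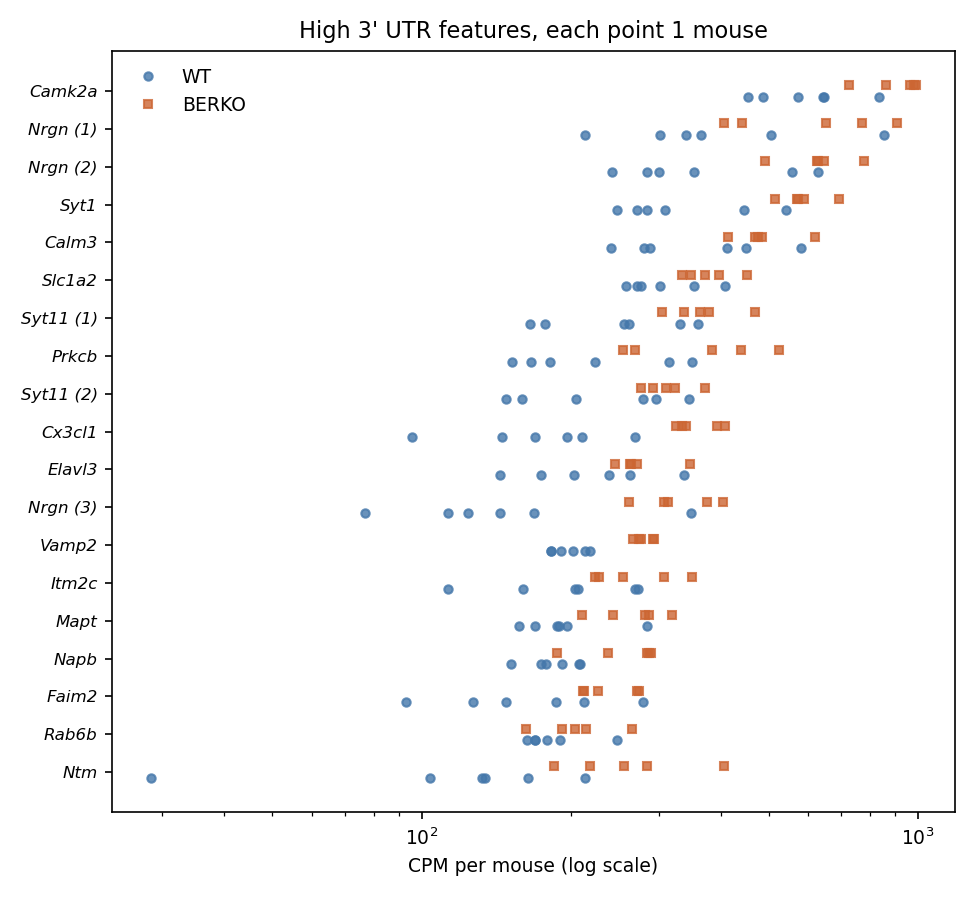
CPM (log scale, horizontal axis) of 3' UTR features among the 20 with the highest mean, each point 1 mouse, WT as circles and BERKO as squares; numbers in brackets separate features of 1 gene. Cx3cl1 and Vamp2 are the ones in which every BERKO mouse lies above every WT mouse.

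The third comparison asked whether 3' UTR reads differed from the start reads of the same gene, so that the gene's own level drops out. No gene passed, yet most leaned towards the 3' UTR in BERKO. Of 1872 genes with a mean of 5 or more reads of each kind, 0 passed in edgeR (0% as background) and 188 had an unadjusted p under 0.05, of which 168 were higher (8.97%) and 20 lower (1.07%). DESeq2 gave 0 calls too, with 274 at an unadjusted p under 0.05. The median class-by-genotype term was 0.43 on the log2 scale, and 1389 genes (74.2%) were above 0. When 3' UTR and start columns were scaled apart, which takes out the overall shift, the median was -0.01, and at an unadjusted p under 0.05 there were 43 genes higher (2.3%) and 51 lower (2.72%), with 0 passed.

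Pkig, an inhibitor of protein kinase A, had the smallest p. Its 3' UTR reads were 0.869 ± 0.606 CPM in WT and 6.54 ± 3.35 in BERKO, beside start reads of 173 ± 46.9 and 204 ± 33.7 (term 2.65 ± 0.55, edgeR adjusted p = 0.254). Every BERKO mouse (2.87 to 12.0 CPM) was above every WT mouse (0 to 1.53 CPM). This rested on few reads, 56 3' UTR reads over all mice, in a gene picked by its p, so it is no separate evidence. The other 9 of the 10 smallest p each had an adjusted p of 0.441: Hacd3, Mtfp1, a factor of mitochondrial fission, Cx3cl1, Tsc1, Sae1, a subunit of the enzyme that activates SUMO, Copg1, Prkacb, Otub1 and Serpine2. Cx3cl1 had a term of 1.02 ± 0.27.

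In some of these genes start reads were lower while 3' UTR reads were higher. Copg1, a coat protein of Golgi vesicles, had 3' UTR reads of 30.9 ± 7 CPM in WT and 54.4 ± 9.21 in BERKO, and start reads of 165 ± 23.9 and 117 ± 10.8. Its 3' UTR share of the pair was 15.8% ± 3.55 and 31.6% ± 3.23, with no overlap. Prkacb, a catalytic subunit of protein kinase A, had 3' UTR reads of 41.1 ± 18.0 and 72.3 ± 19.9 CPM beside start reads of 239 ± 29.7 and 165 ± 28.7. Its share was 14.7% ± 5.74 and 30.1% ± 3.05, again without overlap. Both genes were picked by a small p for this ratio and neither passed, so the lack of overlap is no separate evidence.

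Others differed in the 3' UTR at like start levels. Hacd3, an enzyme of long-chain fatty acid elongation, had 3' UTR reads of 10.3 ± 2.46 and 25.9 ± 8.20 CPM and start reads of 306 ± 27.4 and 285 ± 40.1. Serpine2, a secreted protease inhibitor, had 2.82 ± 0.734 and 10.4 ± 6.03 CPM beside 322 ± 59.1 and 344 ± 47.7. Tsc1, a subunit of the complex that restrains the kinase mTOR, rested on few reads, with start reads of 6.33 ± 3.58 and 0.339 ± 0.472 CPM.

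Of the vesicle genes, Syp and Syt11 had lower mean start reads in BERKO beside higher mean 3' UTR reads. Syp, the vesicle protein synaptophysin, had 3' UTR reads of 151 ± 35.9 and 218 ± 33.1 CPM and start reads of 643 ± 61.6 and 506 ± 58.4 (term 0.90 ± 0.28, edgeR adjusted p = 0.478). Its WT mice had start reads of 606 to 761 CPM and its BERKO mice of 455 to 580. Syt11 had 497 ± 140 and 686 ± 88.5 CPM in the 3' UTR and 1170 ± 152 and 947 ± 94.7 at its start (0.81 ± 0.25, 0.478). Camk2a, the postsynaptic kinase, had a higher mean in BERKO by both measures, with start reads of 576 ± 163 and 780 ± 263 CPM, and its term was 0.20 ± 0.32 (0.877).

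The 13 gene lists differed widely in how much of their 5' ends lay in 3' UTRs. The share of 3' UTR in 3' UTR plus start reads was taken over the members of a list with both kinds of feature. It was highest for ion channel genes (14 with both), 49.3% ± 6.32 in WT and 55.1% ± 2.39 in BERKO. It was lowest for cytosolic ribosomal protein genes, 0.266% ± 0.0680 and 0.201% ± 0.0793. All genes with both kinds stood at 10.3% and 13.5%. The members of a list were chosen with results of these mice known, so the counts below describe them and test no list. A feature is said to have passed where edgeR called it. For comparison, of all 1699 3' UTR features tested 0.118% passed, 14.9% were higher at an unadjusted p under 0.05 and 80.2% were above 0, with a median of 0.40, and within genes 74.2% of 1872 were above 0. DESeq2 called, all higher in BERKO, 3 features of the synaptic vesicle list, 2 of the dendrite and axon list, 2 of the calcium and kinase list, 1 ion channel feature and Cdk5r1, and 0 of the other lists.

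Ion channel genes had 72 3' UTR features in 19 of 23 members. Of 22 features tested, 0 passed in edgeR and 1 in DESeq2. At an unadjusted p under 0.05, 6 were higher (14.9% over all 3' UTR features), with a median log2 difference of 0.55 (0.40 over all). Scn8a, a sodium channel of the axon initial segment, was at 81.4 ± 14.2 and 124 ± 35.5 CPM. Atp2b2, a calcium pump, was at 97.6 ± 52.0 and 155 ± 26.2, and Kcna2, a potassium channel, at 67.7 ± 45.9 and 74.5 ± 20.1. RNA-binding factors had 103 features in all 23 members. Of 13 tested, 0 passed and 3 were higher at an unadjusted p under 0.05 (median 0.64), and the list's share was 42.0% ± 9.28 and 54.3% ± 2.44. Rbfox3, a neuronal splicing factor also known as NeuN, was at 105 ± 55.9 and 175 ± 25.1 CPM, Celf2 at 71.6 ± 5.17 and 92.8 ± 38.2, and Nova2, also a neuronal splicing factor, at 30.4 ± 8.11 and 43.8 ± 17.3.

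Genes without introns, or with 1 coding exon, had 22 of 24 members with a 3' UTR feature. Over the 15 with both kinds of feature, which leaves out Cdk5r1 and Pou3f1, the share was 41.7% ± 9.22 and 51.1% ± 6.57. Of 9 features tested, 1 passed (Cdk5r1, higher), 2 were higher at an unadjusted p under 0.05 and all 9 were above 0 (median 0.54), beside the 0.118%, 14.9% and 80.2% over all 3' UTR features. Pou3f1, a transcription factor of the POU family, was at 46.0 ± 30.5 and 79.7 ± 28.5 CPM, and Rhob, a small GTPase, at 35.0 ± 8.84 and 42.8 ± 15.2. Cdk5 and its partners had 5 features tested and the same 1 call (median 0.52). Pak1, a kinase of actin dynamics, was at 49.9 ± 16.6 and 71.8 ± 9.26 CPM and Cntnap1, a protein of the paranode, at 13 ± 4.86 and 13.1 ± 5.40.

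Transcripts known in dendrites or axons had 39 features in all 20 members and a share of 32.8% ± 5.34 and 37.8% ± 1.48. Of 20 tested, 0 passed in edgeR and 2 in DESeq2 (Camk2a and an end of Nrgn), 5 were higher at an unadjusted p under 0.05 and 19 were above 0 (median 0.49). Within genes their median term was 0.03 over 14 genes, against 0.43 over all 1872. Cplx2, a regulator of vesicle fusion, had its highest end at 177 ± 66.9 and 183 ± 29.3 CPM, and Kif5a, a kinesin heavy chain, at 153 ± 31.6 and 169 ± 22.4. Synaptic vesicle genes had 27 features tested, 0 passed in edgeR and 3 in DESeq2 (Syt1, Vamp2 and Slc17a7), and 8 higher at an unadjusted p under 0.05 (median 0.49), with a share of 18.5% ± 3.28 and 24.0% ± 0.898. Their median within-gene term was 0.61, and all 14 genes were above 0, beside 74.2% of all 1872 genes. RNA-binding factors had a larger median (1.0, 9 of 9 above 0). Calcium and kinase genes had 0.40 (15 of 16), cytoskeleton and axon genes 0.44 (10 of 12) and ion channel genes 0.19 (6 of 8). Astrocyte genes had 0.12 (4 of 7) and myelin genes -0.135 (3 of 8). Whether the lists differed in this term was not tested.

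Calcium and kinase signalling genes had 26 features tested, 0 passed in edgeR and 2 in DESeq2 (Camk2a and the same end of Nrgn), and 9 higher at an unadjusted p under 0.05 (median 0.41), with a share of 15.7% ± 3.09 and 20.0% ± 1.32. Cytoskeleton and axon genes had 13 tested, 0 passed and 5 higher (median 0.42), with 9.07% ± 1.56 and 11.3% ± 0.877. Map1a, a microtubule protein, was at 78.9 ± 39.6 and 116 ± 28.0 CPM, Map1b at 72.3 ± 19.6 and 99.1 ± 34.2, and Cfl1, the actin-severing protein cofilin, at 149 ± 40.9 and 199 ± 22.6. Immediate early genes, induced within minutes of activity, had 49 features but 3 tested, with 0 passed and a share of 26.0% ± 5.65 and 30.6% ± 3.43. Arc, which acts at active synapses, and Nr4a1, a nuclear receptor, spread from 0.342 to 12.2 and from 0 to 18.2 CPM within WT, and Jund and Junb were at 22.9 ± 6.71 and 14.1 ± 7.23 CPM there.

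Glial and housekeeping lists had small shares. Myelin genes were at 6.73% ± 2.97 in WT and 5.65% ± 0.851 in BERKO, with 7 features tested, 0 passed and a median of 0.52. Cnp was at 27.2 ± 15.7 and 44.5 ± 16.9 CPM and Mal at 25.7 ± 12.7 and 29.9 ± 14.3, both myelin proteins. Astrocyte genes were at 7.44% ± 1.60 and 7.38% ± 1.22, with 9 tested and 0 passed (median 0.30). Slc1a3, a glutamate transporter, was at 25.8 ± 10.3 and 31.8 ± 9.14 CPM, and Gja1, a gap junction protein, at 18.3 ± 4.84 and 16.7 ± 6.71.

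Nuclear genes of oxidative phosphorylation had 3' UTR features in 16 of 94 members, with a share of 1.07% ± 0.387 and 1.39% ± 0.525. Of 5 features tested, 0 passed (median 0.03). Ndufa10, a complex I subunit, was at 10.9 ± 8.52 and 13.7 ± 6.13 CPM, and Sdhc, of complex II, at 6.61 ± 2.33 and 13.7 ± 6.36. Cox7a2l was at 10.3 ± 5.59 and 10.4 ± 2.31 CPM, and Atp5d, an ATP synthase subunit, at 7.16 ± 6.58 and 7.57 ± 6.73. Cytosolic ribosomal protein genes had 38 features in 21 of 99 members, and 0 were abundant enough to test. The naming rule of that list also takes Rps6ka2 and Rps6kc1, which are kinases, at 6.39 ± 3.65 and 4.69 ± 5.62 CPM in WT. Rpl27a and Rpl22, which are ribosomal, were at 2.53 ± 1.99 and 1.34 ± 1.36 CPM there, beside start reads of 1160 ± 206 and 525 ± 91.9 CPM. Abundant start reads therefore did not come with abundant 3' UTR ends in these genes.

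**Figure D5:**
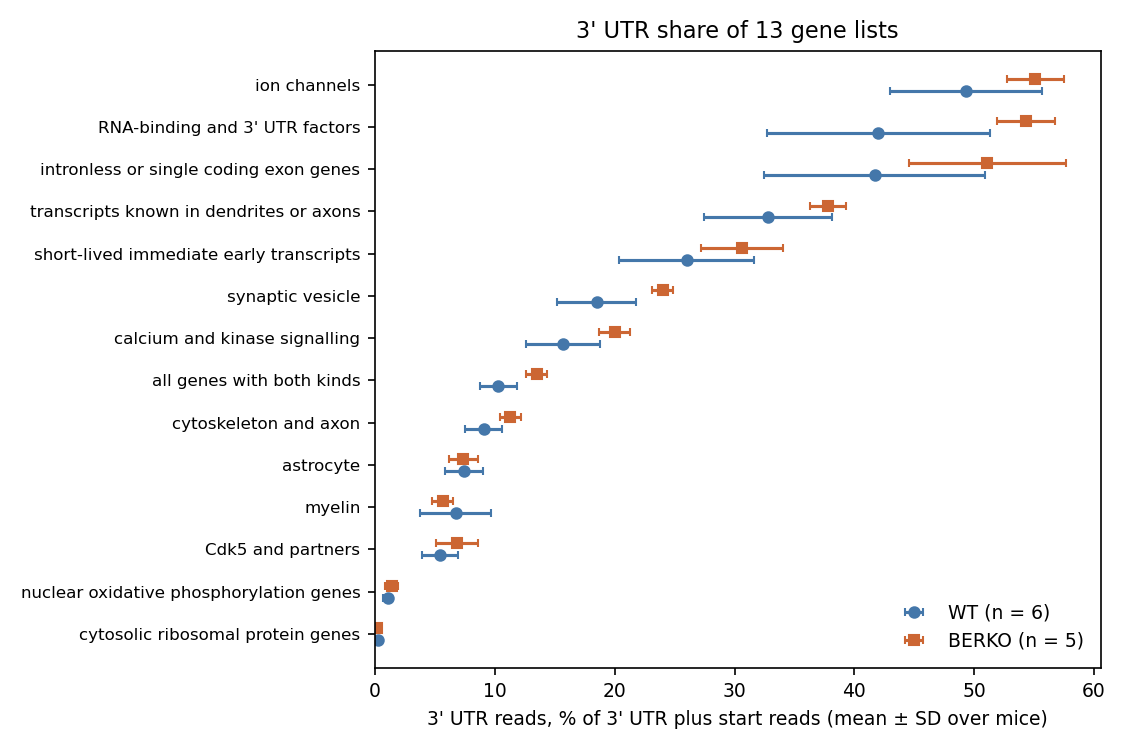
3' UTR reads as percent of 3' UTR plus start reads (horizontal axis, mean ± SD over mice) for 13 gene lists and for all genes with both kinds of feature, WT as circles and BERKO as squares. Ion channel genes stand highest and ribosomal protein genes lowest, and the astrocyte, myelin and ribosomal lists do not share the higher mean in BERKO. The ribosomal list also holds kinase genes that its naming rule takes.

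The last comparison set the right side against the left within each mouse. No difference passed. 3' UTR features took 5.06% ± 0.815 of reads in WT right, 4.91% ± 1.15 in WT left, 7.04% ± 0.588 in BERKO right and 5.82% ± 0.817 in BERKO left biopsies. Right minus left was above 0 in 6 of 11 mice, with a mean of 0.63 points (exact permutation p = 0.146 over 2048 sign changes). It was 0.15 points in WT (2 of 6 mice, exact permutation p = 0.781) and 1.22 in BERKO (4 of 5 mice, 0.125). The difference between the genotypes in this right minus left value was 1.07 points (exact permutation p = 0.201 over 462 splits). The left biopsy of BERKO replicate 5, with 1 lane and 248354 reads, had 4.82% against 7.81% on the right, the widest gap of any mouse.

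Of 17871 features tested between the sides, 2529 were 3' UTR features, and 0 passed in edgeR (0% of all features passed). At an unadjusted p under 0.05, 103 were higher on the right (4.07%, against 3.14% of all features) and 17 lower (0.672%, against 1.18%). DESeq2 gave 0 calls as well, with 141 at an unadjusted p under 0.05. The 5 smallest p were those of Prkcb, Tecpr2, a factor of autophagy, Adgrb1, an adhesion receptor of synapses, Tmsb4x, an actin-binding peptide, and Camk2a, each higher on the right.

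Prkcb was at 254 ± 92.9 CPM in WT right, 194 ± 134 in WT left, 438 ± 161 in BERKO right and 279 ± 45.2 in BERKO left, higher on the right in 9 of 11 mice (log2 0.63 ± 0.16, edgeR adjusted p = 0.29). Camk2a was at 632 ± 159, 561 ± 139, 1050 ± 75.6 and 720 ± 251 CPM in the same order, higher on the right in 7 of 11 (0.41 ± 0.12, 0.716). Adgrb1 and Tmsb4x were higher on the right in 9 of 11 mice each, by 1.19 ± 0.32 (0.439) and 1.07 ± 0.30 (0.533). Tecpr2 was at 7.23 ± 8.73, 1.27 ± 3.12, 18.9 ± 16.0 and 0.932 ± 2.08 CPM in that order, higher on the right in 10 of 11 mice (4.14 ± 1.08, 0.3), on 146 reads in all. The means of the 2 called genes were higher in BERKO on both sides, but neither gene passed in left biopsies alone (edgeR adjusted p = 0.679 and 0.838). Cx3cl1 was at 177 ± 58.0 and 391 ± 45.4 CPM on the right and 172 ± 105 and 316 ± 73.4 on the left. Cdk5r1 was at 31.4 ± 12.4 and 95.2 ± 25.7 CPM on the right and at 26.8 ± 18.7 and 48.4 ± 24.9 on the left.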

How the data were processed

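The authors deposited read counts per feature (whole numbers, lanes apart) with an annotation of each feature's class, position and gene symbol. The submitters' processing notes name mm9, Bowtie and TopHat2 2.0.12. The rule behind the features is not given in the sources. A second deposited table was not used. Counts are reads after PCR, so intervals cover counting error only. Of 112460 features, 38 spike-ins, 19 on spike-in sequences and 37 on ribosomal repeats were left out. All 64 columns were matched to biopsies (0 unmatched), with the last digit of the column name read as the mouse. Lanes were summed, and for the genotype also the right and left biopsy of a mouse.

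Feature and within-gene tests used edgeR 4.0.16 (robust quasi-likelihood, TMM, default expression filter, two-sided, Benjamini-Hochberg, threshold 0.05) in R 4.3.3. SE is log2 change over root F. The within-gene model had mouse, class and class by genotype, with 1 library size per mouse. Shares were compared by exact permutation (scipy 1.17.1) and sides with the mouse as a block. DESeq2 1.42.0 was an alternative. Each test was run on simulated data with 100 features or genes changed 2-fold and 100 changed 4-fold. The genotype test recovered 35 and 100 of them, the within-gene test 25 and 90 and the side test 87 and 100. The genotype and within-gene tests thus missed most 2-fold changes. For the genotype test the simulated spread was smaller than that of the data. For the within-gene and side tests it was not compared with the data. Changes were planted only in features or genes above a minimum mean read count. These counts therefore do not give the recovery of any of the tests in the data.

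Right and left of a mouse are the same animal per the labels. Their deviations correlated by -0.121 to 0.296 over 11 pairs, so the values do not settle the column reading. Nothing says that the mice are independent beyond their numbers, and the p-values take them as independent. Genotype tests set a difference against the spread between mice. Side tests set it against the spread of the right minus left differences over mice. 3' UTR lengths came from GENCODE M21 by RefSeq name (99.9% matched), and stretches shared between genes from its transcripts. No mm9 genome was used here, so no sequence is printed.

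Members, the 13 lists and 8 marker lists were chosen with earlier results of these data known. Genes named are features past the threshold, the 20 highest, the 10 (genotype) and 5 (side) smallest p, the 10 smallest p within genes, up to 4 members of each list by level, and Cdk5r1, Cdk5r2 and Cdk5. Some genes that this rule takes are not reported here. Alternatives were each mouse left out, each side alone, without the 3 WT libraries that stood apart, other scalings, filters and tools, and a replicate block. Leaving out the left biopsy of BERKO replicate 5, which has 1 lane, was added after seeing the data.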

Additional observations from a re-analysis of the deposited data

Results flagged for a closer look

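A sample stood far from the rest of its genotype in 6 of 72 groups examined (the read shares and the highest and lowest-p 3' UTR features, in each genotype); chance gives about 1 in 20. In 3 of them the sample was WT replicate 4, whose 3' UTR share was also the highest of the WT mice: the Nrgn end at 37352878 was at 348 CPM against 77.0 to 168 in the other WT mice, Mapt at 284 CPM against 157 to 196, and Rab6b at 247 CPM against 163 to 190. WT replicate 2 was high for Tspan7 (57.5 CPM against 27.7 to 36.1). BERKO replicate 5 was high for Elavl3 (347 CPM against 245 to 272). Among the shares, WT replicate 3 had 3.02% of its reads in introns, against 1.81% to 2.26% in the other WT mice.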

How the results depend on the processing

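The 3' UTR share difference of 1.52 points kept its direction under all 22 alternatives and stayed past the threshold in 20 of them. It was 1.32 to 1.76 points with a mouse left out. It did not pass in left biopsies alone (0.91 points, exact permutation p = 0.175), nor with a replicate block over the 5 shared mouse numbers (1.498 points, p = 0.0625, the smallest that 5 pairs allow). WT and BERKO mice share only a number: their deviations correlated by -0.0473 to 0.0365, and 2 of 5 correlated best with their own number.

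The count of 2 called 3' UTR features was less steady. It was 0 to 13 with a mouse left out, and 13 without WT replicate 4. It was 0 without any of WT replicates 2, 3, 5 and 6 or BERKO replicates 3 to 6, 0 in left biopsies alone and 0 when features with a single gene symbol were fitted alone. It was 1 without the 3 WT libraries that stood apart, 10 (all higher) with spike-in scaling, which moved the 3' UTR median from 0.40 to 0.63, 14 (8 higher) with features of at least 1 read, where the median was -0.07, and 30 (27 higher) in DESeq2. The cause was not tested. With the replicate block the count was 2, and Cdk5r1 did not pass (1.22, edgeR adjusted p = 0.0807). Over the 22 alternatives Cx3cl1 ranged in adjusted p from 0.000179 to 0.679 and Cdk5r1 from 0.00148 to 0.838, with no change of direction.

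Within genes the count was 0 in all 21 alternatives, the replicate block included, with 0 to 0 when a mouse was left out. Between sides it was 0 in 16 of 17 and 1 with features of at least 1 read, and 0 to 0 with a mouse left out. The share difference between sides stayed below the threshold in 14 of 14 alternatives (0.40 to 0.82 points with a mouse left out) and that of genotype by side in 12 of 12 (0.62 to 1.48). Without the mouse block the side difference was 0.63 (p = 0.213, permutation test). Of 17309 3' UTR features, 4006 had 0 reads and 1699 had enough to be tested between genotypes.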
